A study of Mus musculus with 15 samples.

Results

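Liver sinusoidal endothelial cells were followed in whole-liver RNA through 10 genes that mark them, Clec4g, Oit3, Stab1, Stab2, Lyve1, Pecam1, Cdh5, Kdr, Tek and Fcgr2b. The members were all probe sets that the platform annotation assigns to these symbols, 17 of the 45101 probe sets on the mouse GeneChip array used. Of the 17 probe sets, 14 passed the filter on dim signals, which kept a probe set when, in at least 1 diet group, none of the 5 arrays had it under that array's median signal, and each of the 10 genes kept at least 1 probe set.

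Male C57BL/6J mice, 8 weeks old at the start, were fed for 12 weeks on CRF-1 standard chow (NC, n = 5), on a fatty, cholesterol-rich diet (CL, n = 5), which held 60% cocoa butter, cholesterol at 1.25% and sodium cholate at 0.5% beside 38.23% of the same chow, or on the CL diet with the carotenoid β-cryptoxanthin (CL+CX, n = 5). The treatment text of the labels gives 0.003% β-cryptoxanthin and the sample titles give 0.005%, and the samples were taken as 1 group. The mice carried no engineered allele, no liver cell type was isolated, and each mouse gave 1 array. Signals of each array were scaled to a common 75th percentile of 54.1 and are called scaled signals, and all differences are on the log2 scale.

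Sinusoidal endothelial cells line the capillaries of the liver lobule with a fenestrated wall that lacks a continuous basement membrane, so that plasma reaches the hepatocytes directly. They are scavenger cells that clear modified proteins, hyaluronan and small immune complexes from the blood through endocytic receptors. In fatty and fibrotic livers these cells are known to lose fenestrae and to take on features of ordinary capillary endothelium.

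All 10 genes were measured in the chow-fed livers, where their scaled signals were 1.92 to 32.2 times the median signal of the same array. Stab2, Clec4g and Oit3 are largely restricted to sinusoidal endothelium in the liver, whereas Pecam1, Cdh5, Kdr and Tek are expressed by endothelium in general. Fcgr2b is also expressed by macrophages and B cells, Stab1 and Lyve1 also by some macrophages, and Lyve1 also by lymphatic endothelium. In whole-liver RNA, fewer endothelial cells and less RNA per endothelial cell cannot be told apart.

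No member passed the test between CL and NC mice, and all 10 had a lower mean in CL+CX than in CL mice. Of these, Clec4g, a C-type lectin, and Oit3, a protein with a zona pellucida domain, passed the test against CL. Against NC, Oit3 and the hyaluronan receptor Lyve1 passed, both lower in CL+CX mice. The CL+CX mice were unequal: replicate 1 had the highest signal of its group for 10 of 10 members, and replicates 3 and 4 lay below every CL mouse for 10 of 10. The plot of scaled signals by mouse shows the 15 values of each gene.

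**Figure D1:**
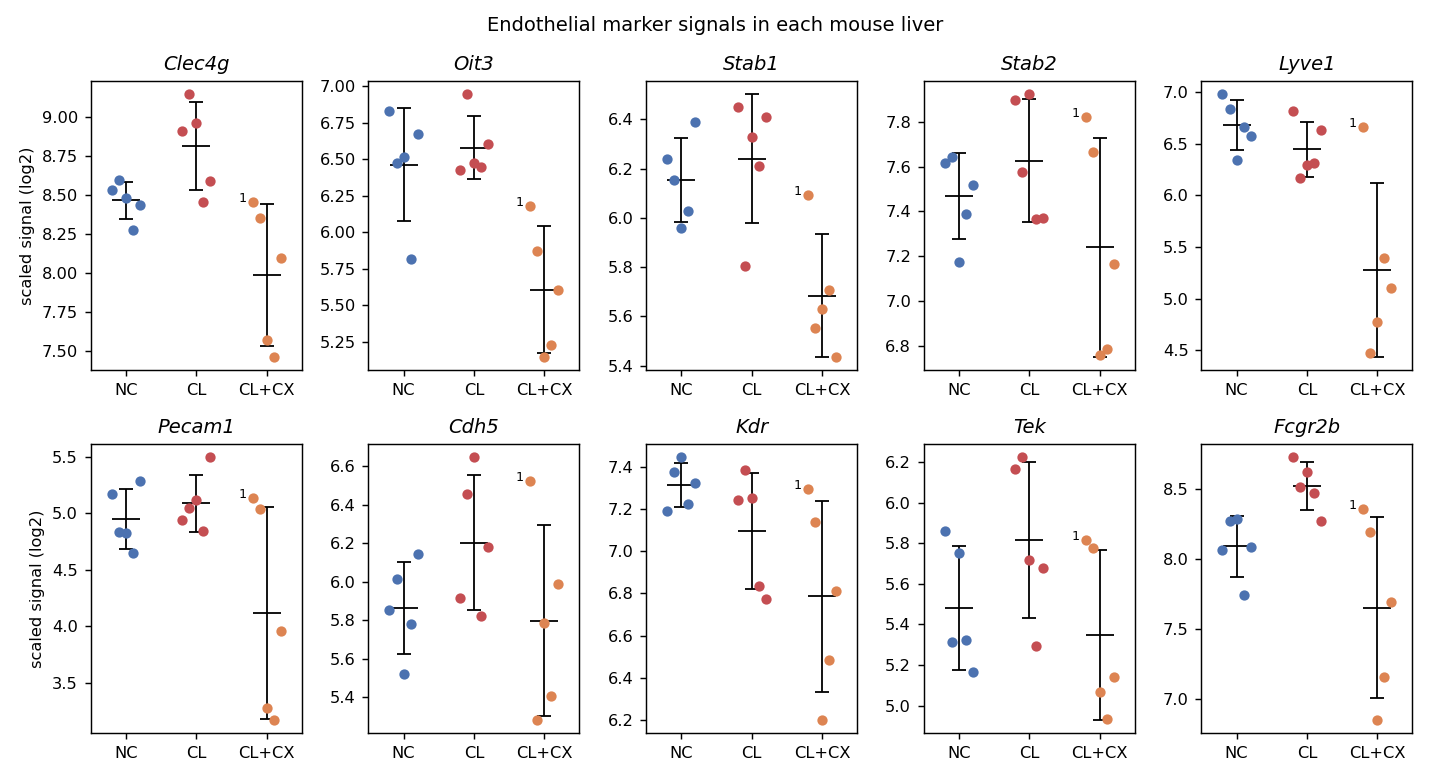
Log2 scaled signal (vertical axis) of the 10 marker genes, 1 panel per gene and 1 point per mouse, by diet group (horizontal axis), with the group mean and SD as bars and CL+CX replicate 1 marked by its number. NC and CL mice overlap in every panel, and CL+CX replicate 1 is the highest point of its group in 10 of 10 panels.

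The scaled signals of Clec4g were 371, 387, 358, 310.3 and 347 in NC replicates 1 to 5. They were 482, 567, 498, 352 and 386 in CL mice and 351, 328, 189.8, 176 and 274 in CL+CX mice. The CL+CX mice did not overlap the CL mice, but the margin was small, 351.2 in the highest CL+CX mouse against 351.6 in the lowest CL mouse. Clec4g fell by 0.83 ± 0.192 (log2, SE) in CL+CX against CL, a 1.77-fold difference with a 95% interval of -1.23 to -0.42 (limma, adjusted p = 0.0349). Against NC the difference was 0.35 ± 0.192 in CL mice (adjusted p = 0.262) and -0.48 ± 0.192 in CL+CX mice (adjusted p = 0.124).

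Oit3 had scaled signals of 114, 89, 91.2, 56.5 and 102 in NC mice. They were 85.8, 123, 88.8, 87.3 and 97.1 in CL mice, and 72.4, 58.6, 35.4, 37.6 and 48.6 in CL+CX mice. Every CL+CX mouse lay below every CL mouse, and 1 NC mouse, replicate 4, lay among the CL+CX mice. Oit3 fell by 0.97 ± 0.214 in CL+CX against CL, a 1.96-fold difference with a 95% interval of -1.43 to -0.52 (limma, adjusted p = 0.0282). It also fell by 0.86 ± 0.214 against NC (adjusted p = 0.0210), while CL and NC mice differed by 0.12 ± 0.214 (adjusted p = 0.770).

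Lyve1, a hyaluronan receptor of sinusoidal and lymphatic endothelium, had 2 probe sets past the filter. The brighter of them gave scaled signals of 127, 115, 81.5, 102 and 95.3 in NC mice and 113, 72.2, 78.5, 79.5 and 99.3 in CL mice. In CL+CX mice it gave 101 in replicate 1 and 22.1, 27.3, 42 and 34.3 in replicates 2 to 5. Those 4 mice lay below every NC and CL mouse, and replicate 1 lay within both ranges. Lyve1 fell by 1.405 ± 0.306 in CL+CX against NC, a 2.65-fold difference (limma, adjusted p = 0.0106), and its other probe set fell by 1.26 ± 0.350 (adjusted p = 0.0346). Against CL the differences were -1.17 ± 0.306 (adjusted p = 0.05002, just above the threshold) and -1.22 ± 0.350 (adjusted p = 0.0699).

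The stabilins are large scavenger receptors that take up modified lipoproteins, hyaluronan and matrix fragments. Stab1 had scaled signals of 75.5, 71.2, 62.2, 65.2 and 83.8 in NC mice, 87.5, 55.8, 80.2, 74.2 and 85 in CL mice and 68.2, 47, 49.5, 52.3 and 43.3 in CL+CX mice. Replicates 2 to 5 of CL+CX lay below every other mouse. The difference between CL+CX and CL was -0.56 ± 0.150, with a 95% interval of -0.88 to -0.24 (limma, adjusted p = 0.0551), and that between CL+CX and NC was -0.47 ± 0.150 (adjusted p = 0.0603). Stab2 ranged from 144 to 199.7 in NC, from 165 to 243 in CL and from 108 to 226 in CL+CX mice. Its groups overlapped in all comparisons, and its differences were -0.39 ± 0.206 against CL (adjusted p = 0.319) and -0.23 ± 0.206 against NC (adjusted p = 0.509).

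Fcgr2b, the inhibitory Fc gamma receptor that clears immune complexes in the sinusoid, had 4 probe sets past the filter. The brightest gave scaled signals of 267, 309, 312, 214 and 271 in NC mice, 424, 365, 395, 356 and 309 in CL mice and 328, 292, 115, 143 and 207 in CL+CX mice. Replicates 3, 4 and 5 of CL+CX lay below every NC mouse, and replicate 1 lay above every NC mouse. The difference between CL+CX and CL was -0.87 ± 0.239 (limma, adjusted p = 0.0594). The probe sets did not give 1 answer: 1 fell by 0.88 ± 0.194 (adjusted p = 0.0284), and the other two gave -0.75 ± 0.224 (adjusted p = 0.0788) and -1.09 ± 0.292 (adjusted p = 0.0532). Between CL and NC the 4 probe sets gave differences of 0.42 to 0.61, and none passed (adjusted p from 0.0537 to 0.262). The probe set at 0.0537 did not overlap between the groups, with 79.9 to 97.9 in NC and 102 to 173 in CL mice, and its unadjusted p was 0.00686.

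The junction genes and the receptor kinases passed no test. Pecam1, an adhesion molecule at endothelial contacts that platelets also carry, had scaled signals of 35.9, 28.5, 28.3, 25 and 39.1 in NC mice, 28.6 to 45.2 in CL mice and 35.1, 32.8, 9.68, 9.03 and 15.6 in CL+CX mice, and 2 of the last lay below the median of their array. Its difference between CL+CX and CL was -0.97 ± 0.331 (limma, adjusted p = 0.117). Cdh5, the cadherin of endothelial adherens junctions, ranged from 45.9 to 70.8 in NC, from 56.5 to 100.4 in CL and from 38.9 to 92.2 in CL+CX mice, with a difference of -0.41 ± 0.224 between CL+CX and CL (adjusted p = 0.339).

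Kdr, the main signalling receptor for VEGF-A, ranged from 146 to 174 in NC, from 109 to 167 in CL and from 73.6 to 157 in CL+CX mice. Its difference was -0.31 ± 0.190 against CL (limma, adjusted p = 0.393) and -0.53 ± 0.190 against NC (adjusted p = 0.0888). Tek, the receptor for angiopoietins, ranged from 35.9 to 58.1, from 39.3 to 74.8 and from 30.6 to 56.3 in NC, CL and CL+CX mice, with a difference of -0.47 ± 0.221 between CL+CX and CL (adjusted p = 0.254). For both receptors the 3 diet groups overlapped.

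The remaining 3 probe sets, 1 each for Clec4g, Cdh5 and Fcgr2b, were below the median of their array on all 15 arrays and were not tested.

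Counted over the members, the test of the 3 diets together passed for Clec4g, Oit3, Stab1 and Lyve1, 4 of 10 genes, beside 16.6% of the 10521 genes tested. Between CL and NC mice 0 of 10 members passed with limma, and 0 had an unadjusted p under 0.05, beside 14.0% of all genes called (7.20% higher and 6.76% lower) and 28.8% with an unadjusted p under 0.05. At gene level no member separated the groups without overlap, beside 11.7% of all genes. The median difference of the members was 0.149, with 8 of 10 above 0 beside 39.9% of all genes, and that of all genes was -0.0752. The test named in the study's methods, run on the same values, also called 0 of 10, beside 9.02% of all genes.

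Between CL+CX and CL mice 2 of 10 members were lower and 0 higher, beside 1.78% of all genes called lower, 1.48% called higher and 3.26% called in either direction. All 10 differences were below 0, beside 46.2% of all genes, and 7 of 10 had an unadjusted p under 0.05, beside 18.7%. The median of the members was -0.691 and that of all genes 0.0231. The groups did not overlap for 2 of 10 members, beside 5.10% of all genes. The members are markers of 1 cell type and varied together, so these counts are not counts of independent genes. When the fit also took account of the β-actin control described further on, 0 of 10 members passed against CL, beside 1 of 10521 genes, and 8 of 10 differences were below 0, with a median SE of 0.320 in place of 0.217. The test named in the study's methods called 0 of 10 here, beside 5.28% of all genes called. Its Tukey p, which already allows for the 3 comparisons of a probe set, was under 0.05 for 5 of 10. That count is not on the scale of the unadjusted p of limma, and its share over all genes was not counted.

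Between CL+CX and NC mice 2 of 10 members were lower and 0 higher, beside 4.85% of all genes called lower, 5.11% called higher and 9.96% called in either direction. All 10 differences were below 0, beside 55.1% of all genes, and 6 of 10 had an unadjusted p under 0.05, beside 26.6%. Their median was -0.474 and that of all genes -0.0383. No member separated the groups without overlap, beside 14.6% of all genes, since CL+CX replicate 1 lay within or above the NC range for 10 of 10 members. With no filter, with the signals as deposited, with the methods' test or with the β-actin control in the fit, 0 of 10 members passed, beside 1.76%, 9.82%, 9.47% and 3.59% of all genes. The differences above 0 were then 3 with the signals as deposited and 2 with the β-actin control. The comparisons with CL and with NC share the CL+CX mice, so their values are not independent of each other.

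**Figure D2:**
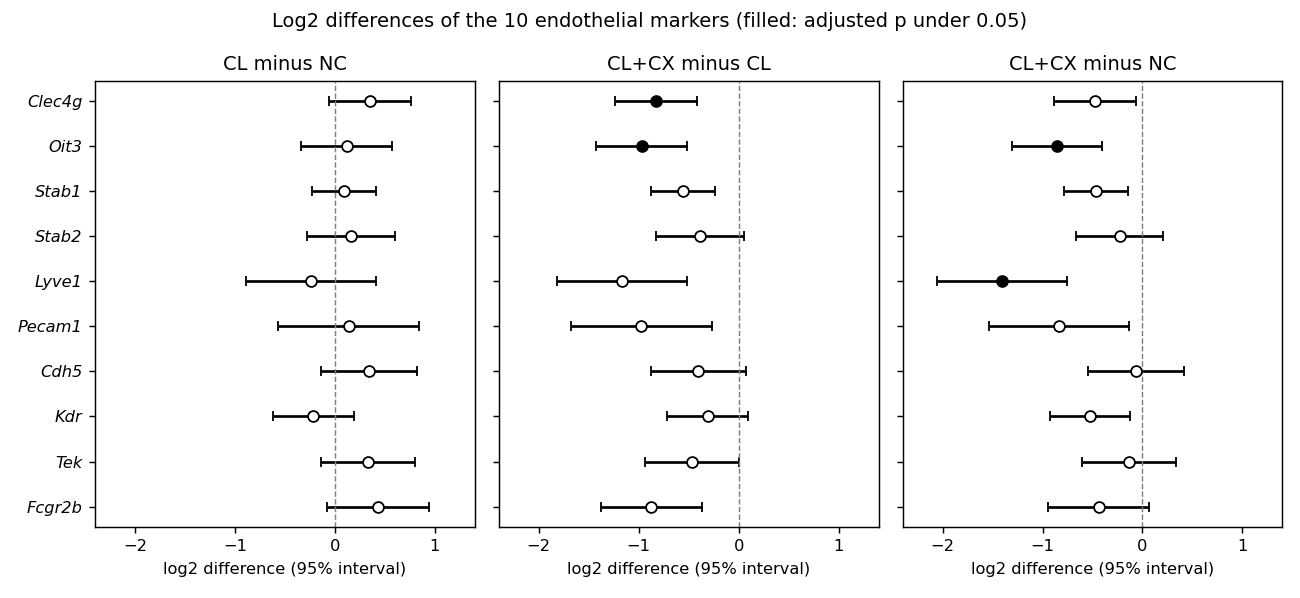
Log2 difference of each marker gene (vertical axis, by gene) between diet groups, with 95% intervals from limma as bars; the horizontal axis is in log2 units, each panel is 1 comparison and filled points have an adjusted p under 0.05. All 10 points lie below 0 in the comparisons of CL+CX with CL and with NC, with 2 filled in each and none filled for CL against NC.

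The spread of the members within the CL+CX group was wide. Their median SD was 0.471 (log2) in CL+CX mice, 0.270 in CL mice and 0.230 in NC mice, while the medians over all genes were 0.200, 0.294 and 0.207. CL+CX was the group with the widest spread for 9 of 10 members, beside 21.0% of all genes. Averaged over the members, and set to the NC mean, the CL+CX replicates 1 to 5 stood at 0.14, -0.36, -0.99, -0.92 and -0.59. NC mice stood between -0.20 and 0.14 and CL mice between -0.09 and 0.26. Replicate 1 of CL+CX was therefore inside the range of both other groups and the other four were below both.

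Without CL+CX replicate 1, 6 of 10 members were lower than in CL mice (Clec4g, Oit3, Stab1, Lyve1, Pecam1 and Fcgr2b), beside 4.05% of all genes called in either direction in that fit. In the same fit 5 of 10 were lower than in NC mice (Oit3, Stab1, Lyve1, Pecam1 and Kdr), beside 7.38% of all genes. Lyve1 then differed by -1.51 from CL (limma, adjusted p = 0.00408) and by -1.75 from NC (adjusted p = 0.000531). Leaving out CL replicate 3 or CL+CX replicate 2, 3 or 4 instead left 0 of 10 members called against CL, beside 1.48%, 0.642%, 0.558% and 0.813% of all genes. Leaving out CL replicate 1, CL replicate 2 or CL+CX replicate 5 left 1, beside 1.45%, 2.70% and 2.12%. Against NC, 1 member was called without NC replicate 1 or 5 or CL+CX replicate 3 or 4, beside 5.90%, 6.89%, 7.84% and 7.29%, and 3 without CL replicate 2, beside 14.9%. All 10 differences between CL+CX and CL were below 0 whichever mouse was left out.

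Other quantities also varied among the CL+CX mice. The mean log2 signal of 8 macrophage and monocyte markers was 7.67 in replicate 1 and 6.95, 6.47, 6.80 and 7.14 in replicates 2 to 5, against 7.49 to 8.42 in CL and 5.29 to 6.10 in NC mice. Replicate 1, with the highest member mean of its group, was also the highest in these markers, and replicate 3 was the lowest in both. Replicate 5 lay above replicate 2 in these markers and below it in the member mean. The 3′ signal of the array's β-actin control exceeded its 5′ signal. This excess, a measure of RNA quality, was 0.949, 1.17, 1.07, 1.17 and 1.00 (log2) in CL+CX replicates 1 to 5. It was 0.70 to 0.945 in CL mice and 0.84 to 1.05 in NC mice. Every CL+CX array had a larger excess than every CL array, so this measure separated the same mice as the diets did. Replicate 1 had the lowest value of the CL+CX group, and replicate 3, the lowest in the member mean, had the middle value. The part of macrophage content or RNA quality in the members' differences was not tested beyond the fit with the covariate.

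**Figure D3:**
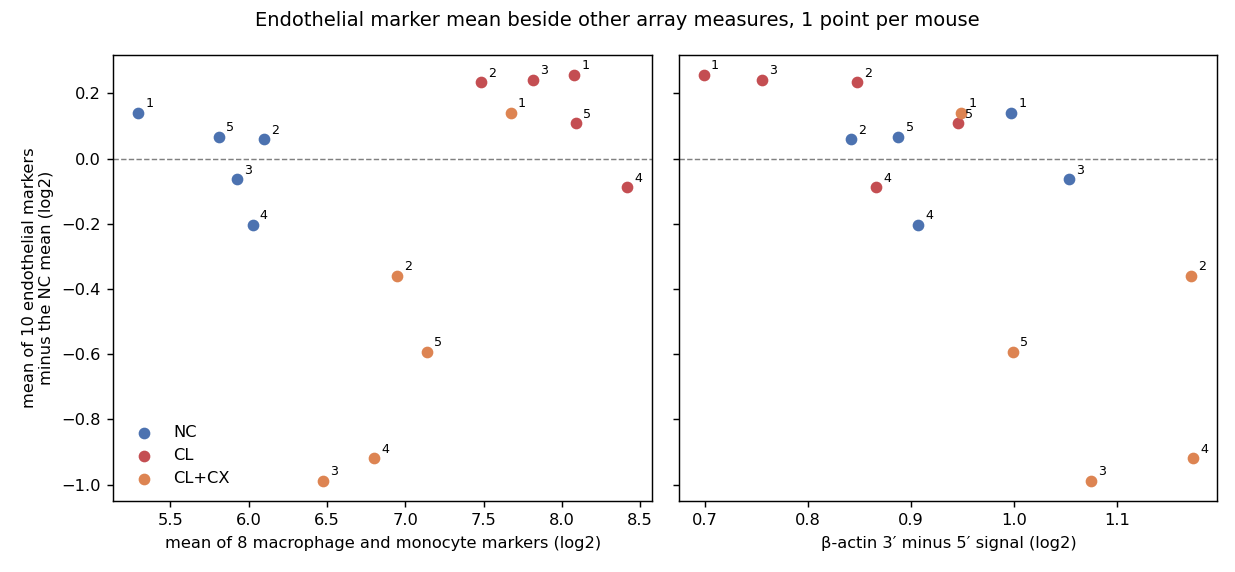
Mean log2 signal of the 10 marker genes minus its mean in NC mice (vertical axis) against the mean log2 signal of 8 macrophage and monocyte markers, and against the log2 difference between 3′ and 5′ β-actin signals (horizontal axes), 1 numbered point per mouse and 1 colour per diet. CL+CX replicate 1 lies at 0.14 on the vertical axis, among the NC and CL mice, and replicates 2 to 5 lie between -0.99 and -0.36.

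The members varied together. Over the 15 arrays all 45 pairs of members correlated above 0, with a median Pearson r of 0.657 and a range of 0.316 to 0.928, and the closest pair was Clec4g with Fcgr2b. After the diet means were taken out, 44 of 45 pairs stayed above 0, with a median of 0.525, and Stab1 with Tek was the exception at -0.00469. These values describe 15 arrays that share their scaling and the diet groups, and carry no test.

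The 8 other genes whose log2 signal was most like the mean of the members over the 15 arrays were Eng, Aqp1, Gpihbp1, Plpp1, Fut11, Cyp4b1, Ptprb and Fgd5. Their Pearson r lay between 0.866 for Fgd5 and 0.935 for Eng, and within diet groups between 0.754 for Cyp4b1 and 0.895 for Aqp1. Eng is a coreceptor for BMP ligands on endothelium, Aqp1 a water channel, Gpihbp1 the capillary anchor of lipoprotein lipase and Ptprb the phosphatase that acts on Tek. These genes were picked for following the members over arrays that include the diet difference, so their own differences are largely set by that choice and are given with no test. Between CL+CX and CL they were -0.69 for Eng, -1.07 for Aqp1, -0.88 for Plpp1 and -1.14 for Cyp4b1.

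Promoters were available for 6 of the 10 members, Clec4g, Stab1, Stab2, Kdr, Tek and Fcgr2b. As examples, the 250 bases before the start of Clec4g and of the related receptors Stab1 and Stab2 are shown. They are written 5′ to 3′ on the gene's strand, from RefSeq (GRCm38.p6). Within diet groups Clec4g correlated with Stab1 at 0.00766 and with Stab2 at 0.852, and whether the members share regulation was not tested. They lie on the minus strand at chr8:3720652-3720901, chr14:31168642-31168891 and chr10:87007943-87008192. Capitals mark GGAAG and its reverse complement CTTCC, the core that ETS factors, a family with several endothelial members, can bind.
Clec4g: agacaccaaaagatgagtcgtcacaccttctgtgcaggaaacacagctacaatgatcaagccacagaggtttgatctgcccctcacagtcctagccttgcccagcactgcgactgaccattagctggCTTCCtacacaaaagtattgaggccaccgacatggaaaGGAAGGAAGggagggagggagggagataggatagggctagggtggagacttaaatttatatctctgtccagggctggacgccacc
Stab1: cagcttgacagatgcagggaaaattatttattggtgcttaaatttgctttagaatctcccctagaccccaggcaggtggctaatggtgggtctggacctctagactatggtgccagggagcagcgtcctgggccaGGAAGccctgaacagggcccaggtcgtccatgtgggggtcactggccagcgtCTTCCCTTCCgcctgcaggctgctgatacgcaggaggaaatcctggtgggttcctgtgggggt
Stab2: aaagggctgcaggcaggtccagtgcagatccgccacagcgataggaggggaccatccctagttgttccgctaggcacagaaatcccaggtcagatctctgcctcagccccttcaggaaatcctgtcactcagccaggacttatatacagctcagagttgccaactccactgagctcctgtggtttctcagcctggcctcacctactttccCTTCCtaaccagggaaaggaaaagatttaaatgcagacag
GGAAG on either strand was present in 5 of the 6 listed members, all but Tek, and in 64.1% of 32851 promoter windows of the same length. GATAA, a core bound by GATA factors, was in 0 of 6, beside 22.6% of all windows. Neither motif overlaps the other, and a match in these letters is a description of the window and not a binding site.

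Other endothelial genes lay mostly below 0 in CL+CX against CL, and few passed the test. Of 12 further genes of sinusoidal endothelium, 0 passed with limma in either comparison with CL. There 4 (NC) and 7 (CL+CX) had an unadjusted p under 0.05, beside 28.8% and 18.7% of all genes. Between CL+CX and CL all 12 differences were below 0, beside 46.2% of all genes, with a median of -0.454. The largest of them was Mrc1, the mannose receptor, at -0.88 ± 0.234 (limma, adjusted p = 0.0518), which macrophages express as well. Against NC, Bmp2, an angiocrine signal to hepatocytes that induces hepcidin, fell by 0.91 in CL+CX mice (adjusted p = 0.0206). Of 24 tested pan-endothelial genes, 3 fell in CL+CX against CL and 21 differences were below 0, with a median of -0.451. Against NC, 8 of the 12 and 19 of the 24 differences were below 0, beside 55.1% of all genes, and the 8 of 12 lay near that share. The 3 that fell against CL, beside 1.78% of all genes called lower there, were Emcn, a sialomucin of venous and capillary endothelium (-1.35, adjusted p = 0.0403), Klf2, a flow-induced transcription factor (-0.93, adjusted p = 0.0340), and the adhesion receptor Adgrl4 (-0.77, adjusted p = 0.0408). Emcn was dim in CL+CX mice, with a mean scaled signal of 12.1. Calcrl, a receptor for adrenomedullin, rose by 0.65 in CL against NC (adjusted p = 0.0288) and was the only one of the 24 to pass there.

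Among 8 tested genes of ordinary capillaries and the basement membrane, Nid1, which links laminin to collagen IV, rose by 0.98 in CL against NC (limma, adjusted p = 0.0340), and 0 passed between CL+CX and CL, with 0 at an unadjusted p under 0.05, beside 18.7% of all genes. The median of these 8 was 0.286 in the first comparison and -0.280 in the second. Cd34, Apln, Aplnr, Esm1, Ly6a and Lama4 of the same list were below the filter.

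Of 7 tested ligands and coreceptors of Kdr and Tek, Angpt2, which antagonises Tek signalling in many settings, rose by 0.73 in CL against NC (limma, adjusted p = 0.0375). Its mean scaled signal was 13.2 in NC and 13.0 in CL+CX mice, near the medians of their arrays. Vegfa, the main ligand of Kdr, fell by 0.62 (adjusted p = 0.0182), and Nrp2, a coreceptor for ligands of the VEGF family, fell by 0.86 (adjusted p = 0.00213). None of the 7 passed in CL+CX against CL, where 1 had an unadjusted p under 0.05, beside 18.7% of all genes, and Angpt2 differed by -0.79 (adjusted p = 0.0571). Against NC, Nrp2 fell by 1.07 (adjusted p = 0.000973) and Vegfb by 0.86 (adjusted p = 0.0162) in CL+CX mice. Of 4 tested genes for hyaluronan turnover and stabilin ligands, Cd44 rose by 2.11, Tgfbi by 0.91 and Sparc by 0.78 in CL against NC (adjusted p = 7.63e-05, 0.00587 and 0.0204), and Cd44 fell by 0.92 in CL+CX against CL (adjusted p = 0.0446). Leucocytes also express Cd44.

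Of 6 genes set beside Fcgr2b, which are other receptors for IgG and signalling proteins, 5 rose in CL against NC and Fcgrt did not. Among the 5 were the activating receptors Fcgr1 (2.41, limma, adjusted p = 4.79e-05), Fcgr4 (2.18, adjusted p = 0.000448) and Fcgr3 (2.05, adjusted p = 0.000235). Their signalling chain Fcer1g also rose (1.77, adjusted p = 0.000163). The value of Fcgr2b in that comparison was 0.43, which did not pass. In CL+CX against CL, Fcgr3 fell by 1.31 (adjusted p = 0.0224) and Fcgr1 by 1.25 (adjusted p = 0.0194), beside -0.87 for Fcgr2b. Whether Fcgr2b differed from these genes was not tested.

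Markers of other cells were set beside the members. All 8 tested macrophage and monocyte markers rose in CL against NC, with a median of 2.20, led by Lyz2 (3.05), Ccr2 (2.67), Ctss (2.28) and Tyrobp (2.25), and 4 fell in CL+CX against CL (Lyz2, Cd68, Tyrobp and Ctss), with a median of -0.914. Their summed scaled signal was 686 to 1501 in NC, 4467 to 5776 in CL and 1540.1 to 3896 in CL+CX mice. Ccr2 had a mean scaled signal of 6.83 in NC mice, under the NC array medians of 11.7 to 13.0. It therefore passed the filter only through diets where it was high, and its rise starts from a dim signal. Itgax, at 11.8 in NC mice, lay near those medians. Both are counted in the 8 and in the median. Of 7 Kupffer cell markers, 6 rose between NC and CL, led by Marco (2.24), Cd5l (1.84), Vsig4 (1.61) and Folr2 (1.33), and Adgre1 fell between CL and CL+CX, with medians of 1.33 and -0.939. Their sums were 544 to 1419.5, 2159 to 4673 and 1199.8 to 2395 in the same order.

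Of 8 stellate cell markers, Dcn and Ngfr rose between NC and CL, and Dcn fell between CL and CL+CX, with medians of 0.449 and -0.238. Ngfr had a mean scaled signal of 12.5 in NC mice, near the medians of their arrays. Of 7 hepatocyte markers, Tat and Hnf4a fell between NC and CL. Between CL and CL+CX 0 passed and 0 had an unadjusted p under 0.05 with limma, beside 18.7% of all genes. The median was 0.0234 with the scaled signals and -0.0469 with the signals as deposited. Of 6 B cell markers 2 were tested and none passed, with summed signals of 24.1 to 38.9 in NC, 22.3 to 43.2 in CL and 22.4 to 38.3 in CL+CX mice. Of 5 lymphatic markers 2 were tested, Prox1 and Reln, and none passed. Reln is also on the stellate cell list, by the same probe set. Pdpn, Ccl21a and Mmrn1 were not tested, so these values cannot show whether lymphatic endothelium changed. Single tested markers of T cells (Cd3g) and of bile ducts (Sox9) and 1 of 2 platelet markers (Pf4) passed in 1 comparison each: Cd3g rose by 1.01 and Pf4 by 0.57 in CL against NC, and Sox9 fell by 1.13 in CL+CX against CL. Cd3g had mean scaled signals of 8.98 in NC, 16.3 in CL and 11.8 in CL+CX mice. It passed the filter only through the CL mice, where it was highest, so its rise starts from a dim signal. Sox9 was dim in CL+CX mice, with a mean of 12.7.

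**Figure D4:**
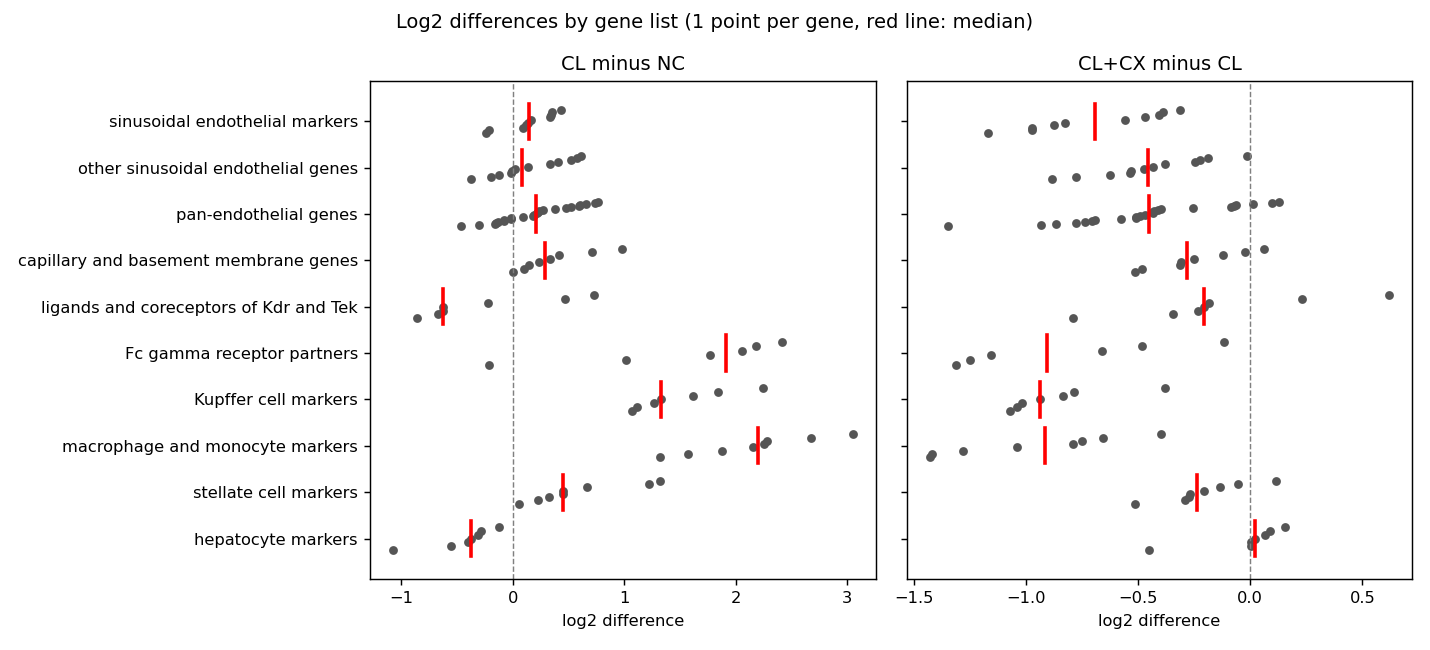
Log2 difference (horizontal axis) of each tested gene in 10 gene lists (vertical axis), 1 point per gene and a red bar at the list's median, in the left panel for CL minus NC and in the right panel for CL+CX minus CL. The sinusoidal endothelial markers have medians of 0.149 and -0.691, and the macrophage and monocyte markers 2.20 and -0.914.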

How the data were processed

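Liver RNA of 15 mice was hybridised to 1 GeneChip array each. The deposited values are an intensity per probe set on a linear scale, which the authors summarised with MAS5; per-array 75th percentiles were unequal (41.5 to 79), so they precede the scaling and baseline steps of the methods, and they carry no detection calls. For the present values, every array's 75th percentile was brought to the geometric mean of all, a floor of 1 replaced lower signals (11.3% of all), and the values were put on the log2 scale. Control probe sets were left out and 20342 probe sets were tested. The platform annotation gave 1 symbol to 34958 probe sets and several to 932. A gene is its probe set with the highest mean signal. The test was limma 3.58.1 (R 4.3.3), fitting all 3 diet means together; p was corrected by the Benjamini-Hochberg procedure across every probe set tested, and 0.05 was the limit. The model was tested on simulated data.

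The members and the other gene lists were chosen with earlier results of these data known. All 10 members are named, as are, from each other list, up to 4 genes with the largest differences among those past the test in CL against NC or CL+CX against CL, and the 8 genes most correlated with the member mean; Mrc1, genes of the comparison with NC (Bmp2, Vegfb) and further genes named were chosen after their values were seen. Alternatives were other filters (none, or the 75th percentile), other scalings (none, or quantile normalization), 16 added to each signal, the methods' test, a trend with robust prior, only the groups compared, the replicate block, a β-actin 3′ to 5′ covariate, the mean of a gene's probe sets, each mouse left out, and, chosen after seeing the data, control probe sets kept. Promoter sequences came from RefSeq (GRCm38.p6). Figures used matplotlib 3.10.9 and numpy 2.4.6 in Python 3.11.15. The number of arrays limits the precision. The limma p-values set a difference between diets against the spread between mice on the same diet. That spread is pooled over the diets in the fit and moderated over probe sets, so it is not the spread of the CL+CX mice alone.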

Additional observations from a re-analysis of the deposited data

Results flagged for a closer look

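Of 49 groups of 5 mice in which a member probe set was examined for a mouse far from the others, 2 were flagged, where chance flags about 1 in 20. Both were dim probe sets that had been left untested. For the untested Clec4g probe set, NC replicate 3 had a scaled signal of 0.598 against 3.29 to 4.07 in the other NC mice, a gap of 0.849 of the group's range. For the untested Fcgr2b probe set, NC replicate 2 had 1.03 against 0.111 to 0.453, and since the other four lay at the floor the gap was 1 on the log2 values.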

How the results depend on the processing

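The signs of the differences between CL+CX and CL were stable and the calls were not. All 10 members lay below 0 under every alternative but the β-actin covariate, counting the 8 members left under the filter at the 75th percentile, and 0 of 10 were called between CL and NC under every alternative. The 4 members called among the 3 diets became 0 with no filter, with the methods' test and with the β-actin covariate, and 2 to 6 when single mice were left out. The shares of all genes called among the 3 diets under these alternatives were not counted, so these changes cannot be set against them. The 2 called between CL+CX and CL became 0 with no filter, with the signals as deposited, with the methods' test and with the covariate, 1 with only the 2 groups compared, and 5 with the filter at the 75th percentile, an offset of 16, a trend with robust prior or the mean of a gene's probe sets; leaving out single mice gave 0 to 6. With quantile normalization or with control probe sets kept, the count was 3. The 2 called between CL+CX and NC became 0 with no filter, the signals as deposited, the methods' test and the covariate, and leaving out single mice gave 1 to 5. With the filter at the 75th percentile the count was 4 of 8, beside 17.6% of all genes. Unfiltered, 18193 genes entered and 21 of them were called between CL+CX and CL, against 343 of 10521; the cause of the other changes was not tested. All genes called between CL+CX and CL numbered 50 with the signals as deposited, 474 with the filter at the 75th percentile, 539 with the offset, 556 with the methods' test, 104 with only the 2 groups, 196 with the block and 1 with the covariate.

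Single members changed sign where their difference was not called. With the signals as deposited, which moved the median of all genes to 0.240 between CL and NC and to 0.207 between CL+CX and NC, Lyve1 (0.0783) and Kdr (0.10003) reversed between CL and NC, and Stab2 (0.0170), Cdh5 (0.180) and Tek (0.110) between CL+CX and NC. Genes called higher were then 96.7% of the calls between CL and NC against 51.6% with scaled signals, 26.0% against 45.5% between CL+CX and CL, and 89.4% against 51.3% between CL+CX and NC. With the β-actin covariate, Stab1 (-0.00982) and Stab2 (-0.0651) reversed between CL and NC, Stab2 (0.103) and Cdh5 (0.220) between CL+CX and CL, and Stab2 (0.0376) and Cdh5 (0.274) between CL+CX and NC. With 1 mouse left out, Oit3 between CL and NC ran from -0.0444 without NC replicate 4 to 0.208, and Cdh5 between CL+CX and NC from -0.247 to 0.0640, with values above 0 also without CL+CX replicate 4 (0.0329) and NC replicate 5 (0.00558).

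The replicate numbers did not pair the mice: deviations from the group means of same-numbered mice correlated between -0.0142 and 0.135 for CL and NC, between -0.132 and 0.0452 for CL+CX and CL and between -0.0906 and 0.0597 for CL+CX and NC. With the replicate number as a block, 3 members (Clec4g, Oit3 and Lyve1) were called between CL+CX and CL, 2 between CL+CX and NC and 0 between CL and NC. The shares of all genes called in that fit were 1.86%, 8.39% and 12.0% in the same order.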
